A study of Mus musculus with 4 samples.

Results

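Immune checkpoint genes encode receptors that restrain T cells and natural killer (NK) cells, and the ligands that engage them. The 8 genes described here were taken by name from the gene lists of the libraries, out of 30406 genes common to all 4: the receptors Pdcd1 (PD-1), Ctla4, Lag3, Tigit, Havcr2 (TIM-3) and Cd160, and the PD-1 ligands Cd274 (PD-L1) and Pdcd1lg2 (PD-L2). Each was present once, by 1 gene ID, in every list. Female C57BL6/J mice gave the cells, taken from their submandibular salivary glands. In the ligated group a metal clip had closed the glands' main excretory ducts for 14 days, and in the mock group the ducts were exposed and no clip was placed. Cells carrying EpCAM (epithelium) or Ter119 (red blood cells) and dead cells were removed before droplet capture, so shares of cell types are those of an enriched suspension. The study held 1 ligated library and 3 mock ones (mock 1, 2 and 3), and no label says that each came from an animal of its own.

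PD-1 is a receptor of activated T cells that dampens signalling from the T cell receptor when it binds PD-L1 or PD-L2. CTLA-4 competes with CD28 for the ligands CD80 and CD86, LAG-3 binds MHC class II, and TIGIT competes with CD226 for poliovirus receptor family ligands. TIM-3 is found on exhausted T cells and on myeloid cells, and CD160 is a receptor of NK cells, innate-like lymphocytes and some CD8 T cells. PD-L1 is known to be induced by interferons in many cell types, including endothelium.

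The ligated library held 13790 barcodes and 80187555 unique molecular identifiers (UMIs, each 1 captured transcript), and the mock libraries held 4798 to 13194 barcodes and 29897488 to 56932041 UMIs. After filtering, 12535 ligated cells and 4513, 9245 and 12690 cells of mock 1, 2 and 3 were analysed. Any 2 libraries shared 11 to 61 barcodes. By the file headers, the counts of the ligated and mock 1 libraries came from Cell Ranger 6.0.1, and those of mock 2 and mock 3 from release 7.0.0. Several of the 8 genes differed between mock 1 and the other mock libraries, so the ratio of the ligated library to mock 1 is given beside such results; it compares 1 library with 1 and has no test. Mock 2 and mock 3 were alike and may not be separate animals, so the p-values rest on a spread between libraries that may be technical.

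In GENCODE M21 (mm10), Pdcd1 (ENSMUSG00000026285) lies at chr1:94038305-94052553 on the minus strand and Ctla4 (ENSMUSG00000026011) at chr1:60887000-60915832 on the plus strand. Cd160 (ENSMUSG00000038304) lies at chr3:96798763-96829351, Lag3 (ENSMUSG00000030124) at chr6:124904361-124911705 and Tigit (ENSMUSG00000071552) at chr16:43648867-43664146, all on the minus strand. Havcr2 (ENSMUSG00000020399) lies at chr11:46454935-46481255 on the plus strand. The ligand genes are neighbours on the plus strand, Cd274 (ENSMUSG00000016496) at chr19:29367455-29388095 and Pdcd1lg2 (ENSMUSG00000016498) at chr19:29410919-29471161, with 22823 bases between them. The annotated introns covered 5236 bases of Lag3, 12319 of Pdcd1, 14361 of Tigit and 17019 of Cd274. They covered 23600 bases of Havcr2, 26503 of Ctla4, 27947 of Cd160 and 58282 of Pdcd1lg2. Cd160 overlaps Pdzk1 on the opposite strand, and Cd274 and Pdcd1lg2 each overlap an opposite-strand gene (AC119228.1 and A930007I19Rik). Ctla4 overlaps the pseudogene Rpl18-ps1 on its own strand. The sources used here do not say whether reads were assigned by strand.

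Clusters were named from marker genes as T-like, NK/ILC1-like (NK cells and type 1 innate lymphoid cells), ILC2-like, macrophage/monocyte-like (all cells of the myeloid class), endothelial-like, fibroblast-like and mural-like, among others. There were 1423 ligated T-like cells, against 147, 254 and 348 in mock 1, 2 and 3, and 3213 ligated NK/ILC1-like cells, against 657, 972 and 1454. Macrophage/monocyte-like cells came to 624 for the ligated library, against 76, 215 and 302. T-like cells held 77.1% of the ligated Pdcd1 UMIs, against 80.0, 51.7 and 38.2% of the Pdcd1 UMIs of mock 1, 2 and 3. Erythroid-like cells held 0.246% of the ligated Pdcd1 UMIs, against 5.00, 13.3 and 26.3%. Levels below are CPM, the UMIs of the gene per 1000000 UMIs of its class, and shares are percentages of cells with at least 1 UMI.

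**Figure D1:**
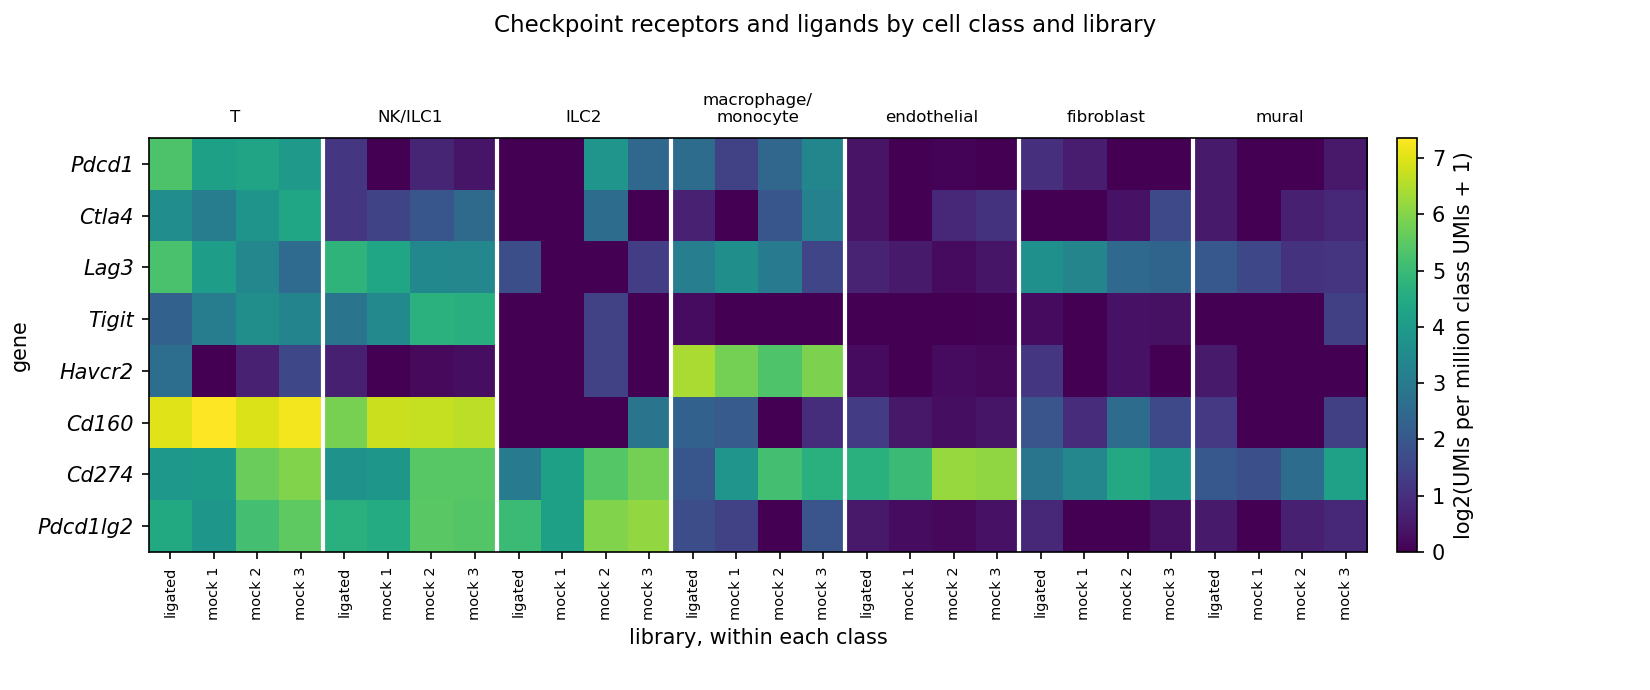
Levels of the 8 genes (rows) in 7 cell classes, each with the ligated library and mock 1, 2 and 3 as columns, as log2(CPM + 1). Havcr2 is bright in macrophage/monocyte-like cells, Cd160 in T-like and NK/ILC1-like cells, and Cd274 spans most classes; rows are not comparable with each other, since levels are not per length.

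Pdcd1 and Lag3 were higher in ligated T-like cells than in any mock library. Pdcd1 stood at 38.1 CPM in ligated T-like cells, against 17.2, 18.5 and 14.5 in mock 1, 2 and 3. Lag3 stood at 37.3 CPM in ligated T-like cells, against 16.1, 9.54 and 5.00 in mock 1, 2 and 3. For both genes the ligated value lay above all 3 mock values, and its exact 95% Poisson interval did not reach theirs. The fitted log2 fold change was 1.30 ± 0.29 (SE) for Pdcd1 and 2.08 ± 0.52 for Lag3, with adjusted p = 0.300 and 0.325 in edgeR's quasi-likelihood test, so neither passed 0.05. The ratio to mock 1 was 2.22 for Pdcd1 and 2.31 for Lag3. In that fit 0% of the 10375 genes passed (0 genes; 1193 had an unadjusted p under 0.05, and DESeq2 called 139), while 28.0% of them lay above and 26.6% below the mock range. Leaving out each mock library in turn gave log2 fold changes of 1.19 to 1.37 for Pdcd1 and 1.66 to 2.54 for Lag3. Both genes passed 0.05 without mock 1, where the spread comes from mock 2 and mock 3 alone, and with a term for the Cell Ranger version. Many other genes also passed in those fits, with the counts given at the end.

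Among T-like cells with CD8 transcripts, Pdcd1 and Lag3 were found more often in the ligated library than in any mock library. A UMI of Pdcd1 was found in 23.5% of the 810 ligated T-like cells with a UMI of Cd8a or Cd8b1, against 7.27% of 55, 3.57% of 84 and 8.26% of 109 such cells in mock 1, 2 and 3. Lag3 was found in 21.6% of those ligated cells, against 9.09, 7.14 and 3.67% in mock 1, 2 and 3. The ligated cells were not deeper: their median was 4238.5 UMIs, against 5725, 6965 and 5490. In T-like cells without a Cd8a or Cd8b1 UMI the order turned for Pdcd1, at 4.73% of ligated cells, against 13.04, 11.8 and 7.11% in mock 1, 2 and 3. Lag3 in those cells kept the order by a narrower margin to mock 1, at 7.01% of ligated cells, against 6.52, 3.53 and 2.09%. These gates were compared as descriptions, with no test. Fibroblast-like cells, which should lack Pdcd1, held it in 0.667% of ligated cells, against 0.488% in mock 1 and 0 of 424 and 0 of 576 cells in mock 2 and 3, at medians of 9492.5 UMIs (ligated) and 10753, 7869 and 6555 UMIs (mock). For Lag3 they are no such background, since it was found in 10.3% of ligated fibroblast-like cells, against 7.80, 3.77 and 2.78%; endothelial-like cells held Lag3 in 0.314% of ligated cells, against 0.263, 0.0787 and 0.131%, at medians of 3696.5 UMIs (ligated) and 5178, 3962 and 3320 UMIs (mock).

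**Figure D2:**
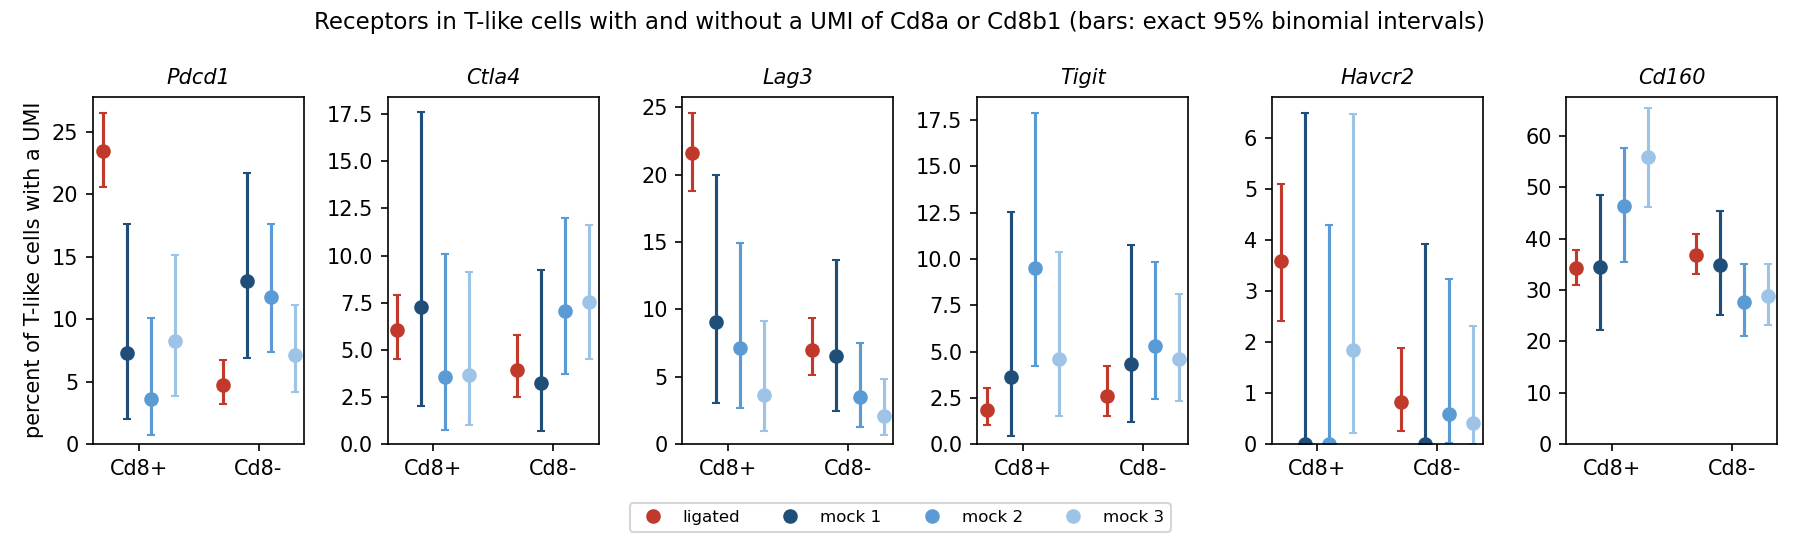
Percentage of T-like cells with a UMI of each receptor (y axis), split into cells with (Cd8+) and without (Cd8-) a UMI of Cd8a or Cd8b1, for the ligated library and mock 1, 2 and 3; bars are exact 95% binomial intervals, covering counting error only. The ligated Cd8+ points for Pdcd1 (23.5%) and Lag3 (21.6%) lie above all mock points.

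In all T-like cells thinned to 1000 UMIs each, Pdcd1 was found in 4.46% of ligated cells, against 0.680, 2.76 and 2.03% in mock 1, 2 and 3, and Lag3 in 3.95%, against 1.36, 0.394 and 0.580%.

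Pdcd1 and Lag3 levels also differed among the 3 T-like clusters. In cluster 13, led by Cd8b1, Cd8a and Trac, Pdcd1 stood at 75.0 CPM in the ligated library, against 17.4, 22.4 and 21.2 in mock 1, 2 and 3. Lag3 stood there at 60.9 CPM, against 8.68, 8.39 and 6.24. In cluster 25, led by Cd163l1, Il7r and the gamma delta genes Tcrg-C1 and Trdc, Pdcd1 was lower in the ligated library, at 14.6 CPM, against 36.4, 41.9 and 33.9. That cluster made up 8.43% of ligated T-like cells, against 21.8, 23.2 and 17.2% of mock T-like cells. In cluster 15, led by Cd3e, Cd3d and Cd3g with Trgv2 and Klra1, Pdcd1 stood at 17.7 CPM in the ligated library, against 7.62, 0 and 1.15. Its mean log2 ratio to the median cluster was 4.01 for NK/ILC1 markers and 3.89 for T markers. The T-like name of cluster 15 came from its leading genes. No test was made between clusters.

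Havcr2 was also above all mock libraries in T-like cells, and Tigit, Ctla4 and Cd160 were not. Havcr2 stood at 5.36 CPM (44 UMIs) in ligated T-like cells, against 0, 0.596 and 2.00 CPM (0, 1 and 4 UMIs) in mock 1, 2 and 3, and did not pass the filter on low counts. It was found in 3.58% of ligated T-like cells with a Cd8a or Cd8b1 UMI, against 0, 0 and 1.83%. Tigit stood at 3.90 CPM in ligated T-like cells, against 7.52, 11.3 and 9.01, below all mock values (log2 fold change -1.15 ± 0.50, adjusted p = 0.444). Ctla4, at 11.2 CPM against 7.52, 13.1 and 19.5, lay within the mock range, and so did Cd160, at 126 against 163, 125 and 149.6. At least 2 of the 6 receptors were detected in 16.6% of ligated T-like cells, against 11.6, 8.66 and 8.91% in mock 1, 2 and 3. After thinning every cell to 1000 UMIs these shares were 1.44% in the ligated library and 0.680, 0.787 and 0.290% in the mock libraries. Of the pairs with Pdcd1 in ligated T-like cells, Lag3 was found beside it in 62 cells, where the product of the shares gives 33.6, and Cd160 in 70, where it gives 77.6. In mock 1, 2 and 3 Pdcd1 and Lag3 were found together in 1, 0 and 1 cells, where the product gives 1.20, 1.09 and 0.672. The class mixes clusters that differ in both genes.

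**Figure D3:**
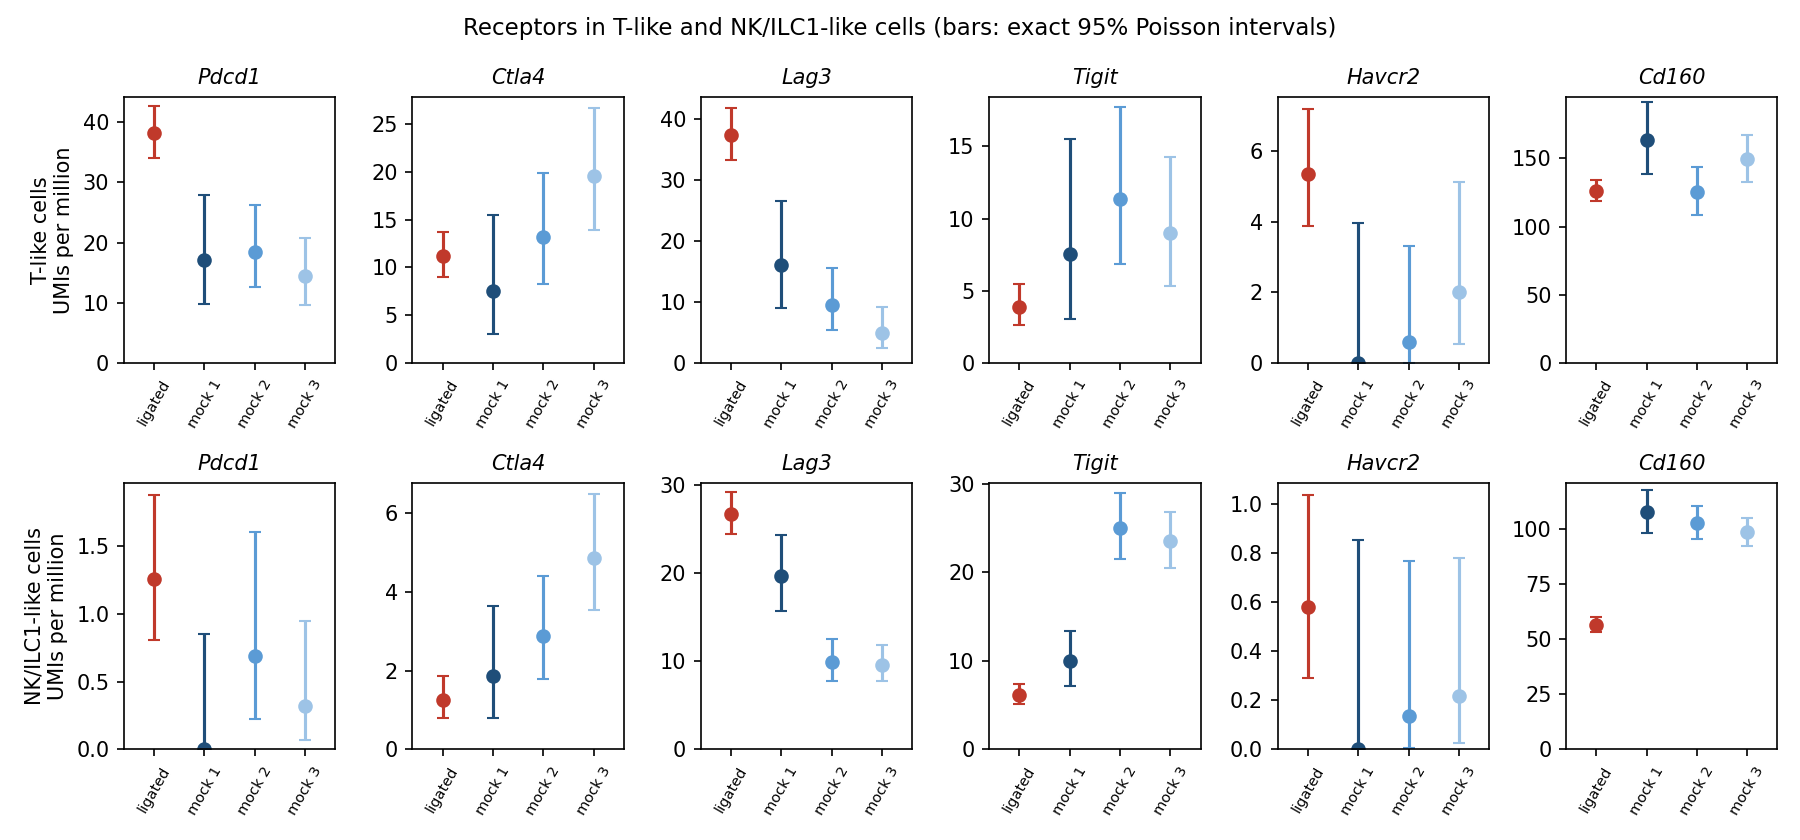
Receptor levels (y axis, CPM) in T-like cells (top row) and NK/ILC1-like cells (bottom row) for the ligated library and mock 1, 2 and 3; bars are exact 95% Poisson intervals. In NK/ILC1-like cells the ligated Cd160 point (56.7) lies below all mock points (98.7 to 108).

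In NK/ILC1-like cells Cd160 was lower in the ligated library than in any mock library. Cd160 stood at 56.7 CPM in the ligated library, against 108, 103 and 98.7 in mock 1, 2 and 3, and was found in 20.0% of ligated cells, against 38.5, 36.6 and 34.5%. The groups did not overlap for Cd160, and the mock libraries of both software versions stood close together. Of all 12199 genes tested in this class, 27.7% lay below the mock range and 27.5% above it. The log2 fold change was -0.84 ± 0.18 (adjusted p = 0.606, edgeR), with 0% of 12199 genes passing (717 had an unadjusted p under 0.05, and DESeq2 called 50). Leaving out each mock library in turn gave -0.86 to -0.80. Cd160 passed 0.05 without mock 1 and with the version term, but so did many other genes, with the counts given at the end. In thinned cells the share was 5.08% in the ligated library and 9.45, 9.88 and 9.40% in the mock libraries. Within cluster 1, led by Gzmc, Cd7 and Rgs1, Cd160 stood at 49.1 CPM in the ligated library, against 86.5 in mock 1; mock 2 and mock 3 had 8 and 26 cells there, and their NK/ILC1-like cells lay in cluster 5. Within cluster 19, with Gzma and Eomes among its leading genes, it stood at 173 in the ligated library, against 178 in mock 1, and that cluster made up 7.13% of ligated NK/ILC1-like cells, against 25.0% in mock 1.

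Tigit, Lag3 and Ctla4 of NK/ILC1-like cells also differed between mock 1 and the other mock libraries. Tigit stood at 6.14 CPM in the ligated library, against 9.95, 25.0 and 23.5 in mock 1, 2 and 3, and its ratio to mock 1 was 0.618. Lag3 stood at 26.7 CPM in the ligated library, against 19.7, 9.89 and 9.59, and its ratio to mock 1 was 1.36. Ctla4 stood at 1.26 CPM, against 1.85, 2.88 and 4.85. None passed in edgeR (adjusted p = 0.606 for each). Pdcd1 had 24 UMIs in ligated NK/ILC1-like cells, against 0, 5 and 3 in mock 1, 2 and 3.

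The difference between ligated and mock libraries was itself compared between T-like and NK/ILC1-like cells, within libraries. In T-like cells summed NK/ILC1 markers stood at 8331 CPM in the ligated library, against 4995, 4800 and 6180 in mock 1, 2 and 3. Summed T markers stood there at 6572, against 5628, 6542 and 6513. The part of these markers in the comparison was not tested. For Cd160 the log2 fold change was -0.11 ± 0.27 in T-like cells and -0.84 ± 0.18 in NK/ILC1-like cells, and the T-like value minus the NK/ILC1-like value was 0.72 ± 0.13 (adjusted p = 3.83e-05, edgeR). In that fit 4.66% of 12863 genes passed, and Cd160 was the 1 member that did. Leaving out each mock library in turn gave 0.64 to 0.79, with adjusted p of 2.13e-07 to 0.00902. Among T-like clusters, cluster 15 also had less Cd160 in the ligated library, at 161 CPM, against 299.9, 242 and 253, while cluster 13 had 94.1, against 34.7, 78.3 and 94.8. For Lag3 the difference was 0.94 ± 0.30 (adjusted p = 0.0530). Without mock 1 and without mock 2 its adjusted p was 0.0478 and 0.0414, and without mock 3 it was 0.499.

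Havcr2, a receptor of myeloid cells as well as of T cells, was higher in ligated macrophage/monocyte-like cells. It stood at 85.5 CPM in the ligated library, against 55.4, 39.5 and 59.2 in mock 1, 2 and 3, above all mock values. A UMI was found in 41.5% of ligated cells, against 23.7, 10.2 and 12.6%, at median depths of 6651 UMIs (ligated) and 6095, 1420 and 1789 UMIs (mock). Thinned to 1000 UMIs, the shares were 7.84% in the ligated library and 7.04, 3.92 and 6.55% in the mock libraries. The log2 fold change was 0.76 ± 0.34 (adjusted p = 0.441, edgeR), with 0% of 9068 genes passing (1116 had an unadjusted p under 0.05, and DESeq2 called 248). Of all 9068 genes tested in this class, 27.5% lay above the mock range and 24.5% below it. Cluster 17, led by MHC class II genes, made up 19.4% of ligated macrophage/monocyte-like cells, against 35.5, 85.6 and 83.4%. Within cluster 16, led by Lyz2, Ms4a7 and C1qa, Havcr2 stood at 87.0 CPM in the ligated library, against 62.9, 42.3 and 75.1. Macrophage/monocyte-like cells held 81.0% of the ligated Havcr2 UMIs, against 71.7, 17.3 and 35.4% of those of mock 1, 2 and 3. Erythroid-like cells held 3.14%, against 28.3, 76.9 and 57.3%, so many mock Havcr2 UMIs lay outside the class compared. The part of this split in the difference was not tested.

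Cd274 was lower in ligated macrophage/monocyte-like cells. It stood at 2.92 CPM (15 UMIs) in the ligated library, against 13.4, 35.1 and 24.4 (8, 24 and 26 UMIs) in mock 1, 2 and 3, below all mock values. The log2 fold change was -3.02 ± 0.68 (adjusted p = 0.161, edgeR; 0.0316 in DESeq2), and the ratio to mock 1 was 0.217. Of all genes tested in this class, 24.5% lay below the mock range and 27.5% above it. Within cluster 16 Cd274 stood at 3.11 CPM in the ligated library, against 16.2, 58.6 and 41.2. The summed level of 10 endothelial markers in macrophage/monocyte-like cells was 416 CPM in the ligated library, against 1912, 2459 and 3113 in mock 1, 2 and 3, and their part in the Cd274 result was not tested. All 10 had UMIs in every library.

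Cd274 was found in all 5 classes tested, and endothelial-like cells held 48.3% of its ligated UMIs, against 77.5, 69.6 and 65.6% of those of mock 1, 2 and 3. There it stood at 24.6 CPM in the ligated library, against 31.6, 74.3 and 69.7 in mock 1, 2 and 3. Ligated cells were below all mock libraries, but mock 1 was much nearer to them than to mock 2 and 3 (ratio to mock 1 0.780). The log2 fold change was -1.29 ± 0.56 (adjusted p = 0.578, edgeR), with 0% of 14158 genes passing (1284 had an unadjusted p under 0.05, and DESeq2 called 236). Of all genes tested in this class, 27.2% lay below the mock range and 29% above it. Cluster 4, led by the interferon-induced genes Ifit3b, Ifit1 and Isg15, had the highest Cd274 level of the 7 endothelial-like clusters in each library, at 69.9 CPM in the ligated library, against 68.9, 152 and 153. Cluster 4 made up 10.3% of ligated endothelial-like cells, against 11.9, 15.8 and 14.5%. The other endothelial-like cells lay in different clusters by library. Cluster 2, led by Aqp1, held 62.7% of the ligated ones, against 11.7, 0.748 and 0.670%, cluster 0, led by Car4, held 1.28%, against 8.07, 37.7 and 36.8%, and cluster 9, led by Cdkn1a, held 3.53%, against 48.5, 1.61 and 1.53%. Within cluster 2 Cd274 stood at 19.3 CPM in the ligated library, against 23.0, 41.9 and 61.6.

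**Figure D4:**
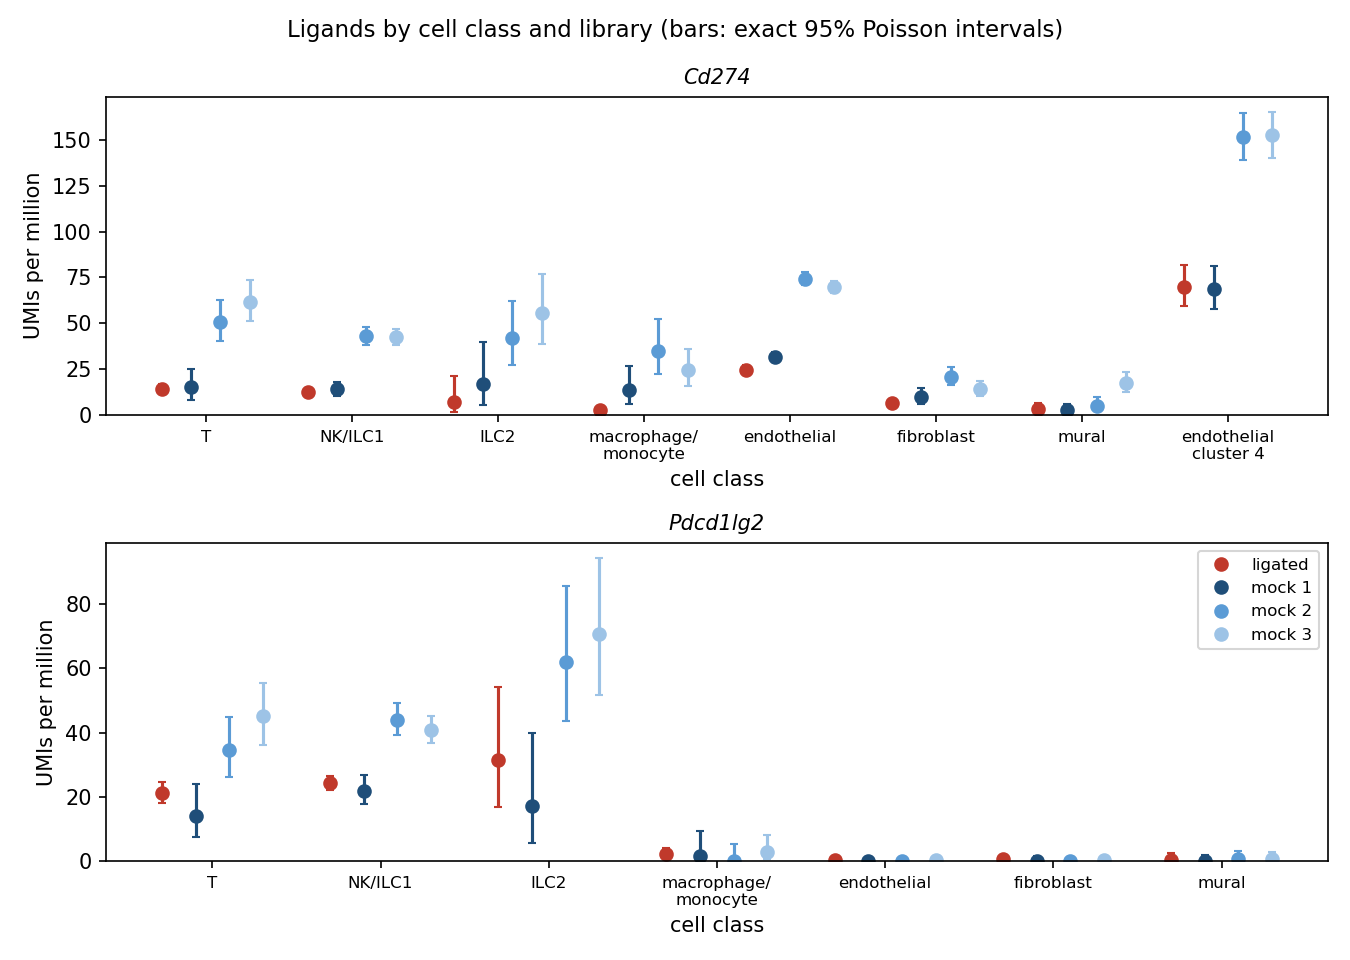
Levels of Cd274 (top) and Pdcd1lg2 (bottom) in CPM (y axis) by cell class and, for Cd274, in endothelial cluster 4, for the ligated library and mock 1, 2 and 3; bars are exact 95% Poisson intervals. In T-like and NK/ILC1-like cells mock 1 sits beside the ligated library for Cd274, below mock 2 and mock 3.

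The response of Cd274 differed between endothelial-like and myeloid cells. It was lower in the ligated library in both, by less in endothelial-like cells: the endothelial-like log2 fold change minus the myeloid one was 1.70 ± 0.47 (adjusted p = 0.0128, edgeR), in a fit where 7.07% of 14462 genes passed. Without mock 2 it was 1.54 with adjusted p = 0.115, and without mock 1 or mock 3 the adjusted p was 0.00170 and 0.0302. The myeloid arm rests on the 15 ligated UMIs given above. Myeloid cells also carried markers of the class they were compared with, at 416 CPM in the ligated library, against 1912, 2459 and 3113 in mock 1, 2 and 3. The part of this endothelial RNA in the difference was not tested.

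In T-like and NK/ILC1-like cells Cd274 stood near mock 1, and both ligands stood below mock 2 and 3. In T-like cells Cd274 stood at 14.3 CPM in the ligated library, against 15.0, 50.7 and 61.5 in mock 1, 2 and 3. In NK/ILC1-like cells it stood at 12.7, against 13.9, 42.9 and 42.3. Summed endothelial markers stood at 293 CPM in ligated T-like cells, against 991, 1040 and 1430 in mock 1, 2 and 3. In NK/ILC1-like cells they stood at 246, against 250, 167 and 218. Their part in the Cd274 levels was not tested. Pdcd1lg2 was almost confined to lymphocytes among the classes in the plot of the ligands: it stood at 24.3 CPM in ligated NK/ILC1-like cells, against 22.0, 44.0 and 40.7, and at 0.418 in ligated endothelial-like cells, against 0.195, 0.126 and 0.294. Macrophage/monocyte-like cells had 12 Pdcd1lg2 UMIs in the ligated library, against 1, 0 and 3. In T-like cells it stood at 21.2, against 14.0, 34.6 and 45.0, and in ILC2-like cells at 31.6, against 17.1, 62.1 and 70.7. Cd274 in ILC2-like cells stood at 7.29 CPM (3 UMIs) in the ligated library, against 17.1, 42.0 and 55.3, below all mock libraries. Summed over lymphocytes, 0.0076% of 13163 genes passed in edgeR (1 gene, no member; 930 had an unadjusted p under 0.05, and DESeq2 called 94). Of 32851 promoters in the RefSeq table (GRCm38.p6), 7.02% held the letters TTCNNNGAA, the form STAT factors bind, within 250 bases before the start on either strand. They were not found in that window of Cd274 or Pdcd1lg2.

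Among stromal cells Lag3 was detected in fibroblast-like cells. It stood at 11.9 CPM in the ligated library, against 9.22, 4.72 and 4.18 in mock 1, 2 and 3, and a UMI was found in 10.3% of ligated cells, against 7.80, 3.77 and 2.78%. The log2 fold change was 1.14 ± 0.54 (adjusted p = 0.449, edgeR), with 0% of 12470 genes passing (1482 had an unadjusted p under 0.05, and DESeq2 called 251). Fibroblast-like cells lay in different clusters by library: cluster 12, led by Spp1, Cilp and Thbs4, held 1159 of the 1200 ligated ones, against 66 of 205, 36 of 424 and 56 of 576 mock ones, and cluster 14, led by Lsamp and Fgf10, held 19, against 127, 382 and 513. Within cluster 12 Lag3 stood at 12.1 CPM in the ligated library, against 18.4, 5.04 and 4.20, within the mock range, and Cd274 at 6.29, against 5.03, 25.2 and 12.6. In endothelial-like cells Lag3 stood at 0.679 CPM in the ligated library, against 0.454, 0.168 and 0.330. Of the summed Lag3 and Cd160 UMIs, Lag3 made up 80.7% in ligated fibroblast-like cells (exact 95% interval 74.1 to 86.2), against 32.0% in ligated NK/ILC1-like and 22.8% in ligated T-like cells. In mock 1, 2 and 3 Lag3 made up 90.9, 48.5 and 66.7% in fibroblast-like cells, against 15.4, 8.77 and 8.86% in NK/ILC1-like cells. A high Lag3 share was not particular to fibroblast-like cells. It was 66.7% in ligated macrophage/monocyte-like cells, against 77.8, 100 and 66.7% in mock 1, 2 and 3, from few UMIs. In endothelial-like cells it was 31.7% in the ligated library, against 53.8, 44.4 and 50.0%, also from few UMIs.

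Fibroblast-like cells of the ligated library also carried more RNA of NK/ILC1 markers. Summed NK/ILC1 markers stood at 554 CPM there, against 79.7, 279.9 and 241 in mock 1, 2 and 3, and summed T markers at 321, against 233, 187 and 130. The T sum includes Thy1, which was left out of the 24 markers used next, so that sum may not be lymphocyte RNA alone. In fibroblast-like cells with no UMI of 24 T and NK/ILC1 markers, a restriction chosen after seeing the data, Lag3 was found in 7.17% of 251 ligated cells, against 7.93% of 164, 3.36% of 387 and 2.65% of 529 mock cells. The ligated share then lay within the mock range, but the Lag3 level in the kept cells lay above it, at 9.51 CPM, against 9.02, 4.33 and 4.10. The restriction kept 251 of 1200 ligated cells, against 164 of 205, 387 of 424 and 529 of 576 mock cells. The part of lymphocyte RNA in the unrestricted difference was not tested further. Over all stromal cells 0% of 16056 genes passed (2131 had an unadjusted p under 0.05, and DESeq2 called 782). Cd160 stood at 1.46 CPM in ligated endothelial-like cells, against 0.389, 0.210 and 0.330, where summed NK/ILC1 markers stood at 249, against 25.2, 11.9 and 14.5.

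**Figure D5:**
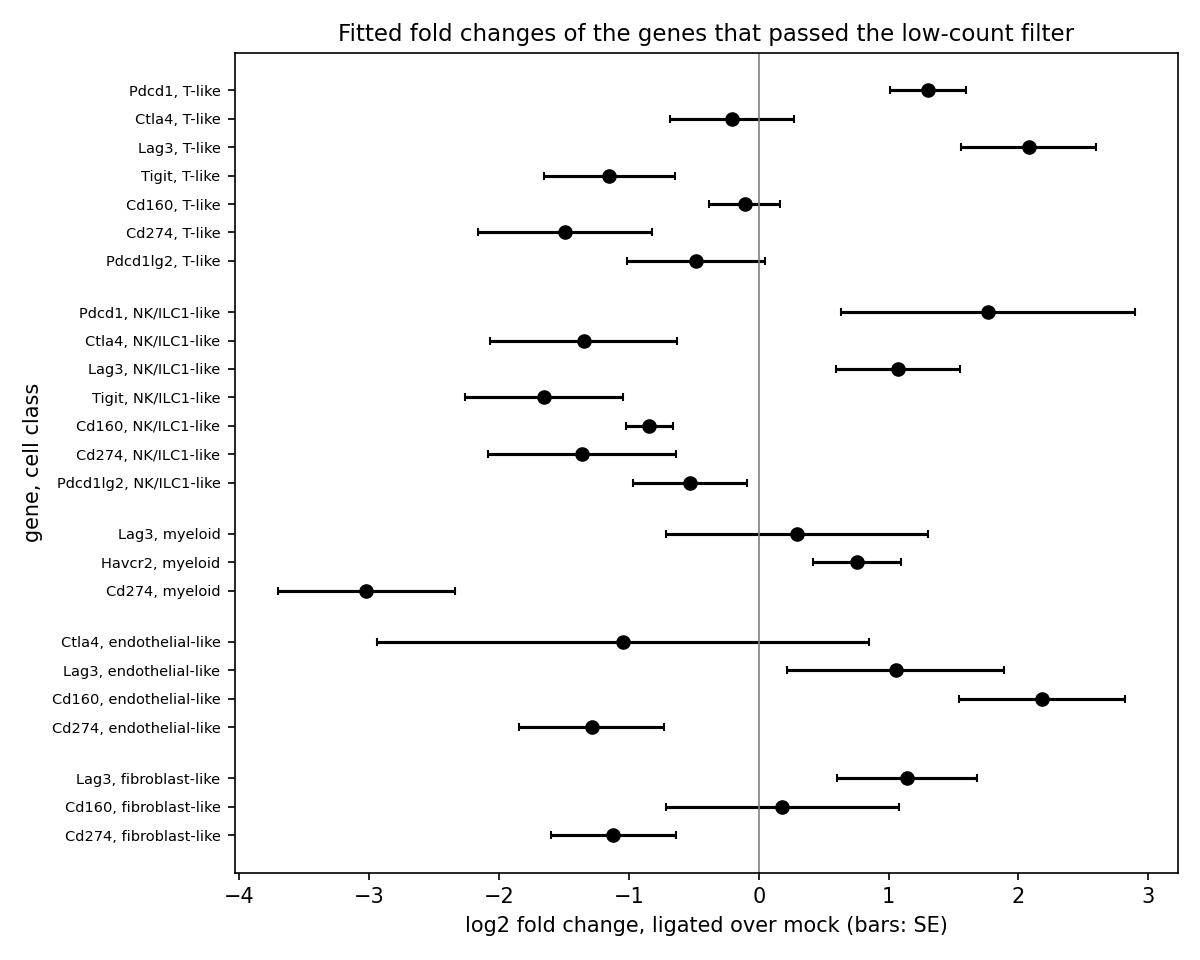
Fitted log2 fold changes of ligated over mock (x axis) for each gene and class that passed the filter on low counts, with SE bars, from edgeR. Pdcd1 and Lag3 of T-like cells lie right of 0 (1.30 and 2.08) and Cd274 of myeloid cells lies farthest left (-3.02); none passed adjusted p 0.05.

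Other genes of the pathways were read from the same fits, in 4 lists of partners and ligands (16 genes), other inhibitory and costimulatory receptors (16), the interferon gamma pathway (12) and transcription factors of T cell activation and exhaustion (16). No gene of any list passed in any class. In T-like cells 8 of 13 tested other receptors lay above the mock range and 2 below, with a median log2 fold change of 0.50, against 28.0% of all genes above, 26.6% below and a median of -0.02. Those named by size were Klrg1 (1.78), Cd200 (-1.61), Tnfrsf9 (0.75) and Cd27 (0.69). Cd200, a glycoprotein that restrains myeloid cells, stood at 22.5 TMM-scaled CPM in ligated T-like cells, against 70.5, 58.0 and 77.7 in mock 1, 2 and 3. Of 14 tested transcription factors 3 lay above and 3 below, and those named were Tcf7 (-1.21), Maf (-0.90), Ikzf2 (-0.38) and Nr4a3 (0.34). Tcf7, which encodes TCF-1, a factor of naive and stem-like T cells, stood at 37.9 in ligated T-like cells, against 106, 88.1 and 69.9. Of the 11 tested partners and ligands 3 lay above and 2 below (named: Cd86 0.87, Ceacam1 -0.82, Icos -0.53 and Lgals3 0.44), and of 11 interferon gamma genes 3 lay above and 3 below (named: Ifngr2 -1.66, Jak2 -0.78, Gbp2 0.52 and Ifngr1 -0.49). Counts of 3 of 11 and 3 of 14 lie near the shares over all genes.

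In NK/ILC1-like cells 7 of 13 tested transcription factors lay below the mock range and 0 above, with a median of -0.39; over all genes of the class 27.7% lay below and 27.5% above, with a median of -0.03. Tcf7 stood at 7.60 TMM-scaled CPM in the ligated library, against 40.7, 26.6 and 26.5 in mock 1, 2 and 3 (log2 fold change -2.03 ± 0.39), and Nr4a1 (-0.82), Nr4a2 (-0.81) and Eomes (-0.53) were the others named. The costimulatory receptor Cd28 stood at 5.95, against 18.5, 21.4 and 19.9 (-1.74 ± 0.24), with Nectin3 (-0.50) and Lgals9 (0.10) the others named among 10 tested partners, of which 1 lay above and 2 below. Among 12 tested other receptors 3 lay above and 2 below (named: Cd200 0.99, Tnfrsf4 0.63, Vsir 0.63 and Cd47 -0.39). Of 11 interferon gamma genes 2 lay above and 4 below (named: Ifngr2 1.71, Gbp2 0.83, Jak2 -0.57 and Ifngr1 -0.39).

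In myeloid cells 5 of 9 tested partners lay above the mock range and 1 below, where 27.5% of all genes lay above and 24.5% below. Cd86, a ligand of CD28 and CTLA-4, stood at 197 TMM-scaled CPM in the ligated library, against 115, 122 and 115 in mock 1, 2 and 3 (0.75 ± 0.28), and Ceacam1 stood at 13.2, against 36.1, 35.0 and 34.3 (-1.40 ± 0.38). Cd226 (0.75) and Icosl (0.68) were the others named. Cxcl10, an interferon-induced chemokine, stood at 98.8, against 41.1, 27.4 and 33.3 (1.54 ± 0.34), with Jak2 (-1.26), Gbp2 (-0.97) and Ifngr2 (0.75) also named among 11 interferon gamma genes, of which 5 lay above and 2 below. Of 11 other receptors 5 lay above and 3 below (named: Cd200 -2.13, Cd200r1 -1.54, Tnfrsf4 1.16 and Tnfrsf18 0.95). Of 11 transcription factors 2 lay above and 4 below (named: Nr4a1 -2.56, Irf4 -2.04, Nr4a2 -1.92 and Bhlhe40 -1.58).

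The interferon-induced chemokine Cxcl9 stood apart in stromal cells of the ligated library. In fibroblast-like cells it stood at 84.5 TMM-scaled CPM, against 1.89, 3.93 and 8.33 in mock 1, 2 and 3 (4.07 ± 0.58), and in endothelial-like cells at 22.5, against 1.28, 3.14 and 3.57 (3.06 ± 0.55). Cxcl10 stood at 50.6 in ligated endothelial-like cells, against 5.33, 12.9 and 12.9 (2.28 ± 0.52). Cd274 was below all 3 mock libraries in both classes, at the levels given above for endothelial-like cells and at 6.27 CPM in ligated fibroblast-like cells, against 9.68, 20.9 and 14.1. All 4 lists had more genes above the mock range than the 29.0% of all genes in endothelial-like cells: 8 of 12 interferon gamma genes, 9 of 13 partners, 10 of 12 other receptors and 8 of 14 transcription factors lay above, and 2, 0, 1 and 1 below, where 27.2% of all genes lay below. In endothelial-like cells Ifng (2.25), Ciita (0.59), Cd86 (3.82), Cd28 (3.72), Cd96 (3.01) and Lgals3 (2.72) were also named. Ifng, Cd86, Cd28 and Cd96 are leukocyte genes at under 2 CPM in ligated cells and near 0 in mock cells, so their fitted values depend on the prior count. Summed macrophage markers in endothelial-like cells stood at 351, against 88.0, 68.8 and 64.9; their part was not tested. In fibroblast-like cells 5 of 10 interferon gamma genes, 6 of 9 partners, 6 of 10 other receptors and 3 of 13 transcription factors lay above, and 2, 2, 3 and 5 below, where 29.9% of all genes lay above and 28.5% below. Nectin2 (1.63), Icosl (-1.61), Cd226 (1.26), Ceacam1 (-1.15), Ifngr2 (0.82), Ifngr1 (-0.52) and Jak2 (-0.51) were also named.

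The genes most alike in pattern to each member were found over 40 class and library sums from 11 classes, by Pearson correlation of log2(CPM + 1), as a description. Havcr2 went with the macrophage genes Adgre1 (0.97), Fcgr1 (0.96) and Cd180 (0.96). Tigit went with Klrc3 (0.95), Sh2d1a (0.94) and Crybg2 (0.93), and Cd160 with Gm14029 (0.94), Sh2d1a (0.94) and Klra6 (0.94). Ctla4 went with Cd28 (0.81), Gm39556 (0.80) and 1700021A07Rik (0.79), and Pdcd1 with Slfn1 (0.82), Mmp25 (0.79) and Cd4 (0.78). Cd274 went with H2-T23 (0.82), Olfr56 (0.81) and Arhgef3 (0.81), Pdcd1lg2 with Olfr1259 (0.95), Trdv4 (0.94) and Il18rap (0.93), and Lag3 with Hvcn1 (0.75), Ighd (0.73) and Serpina3f (0.73). Points of 1 library share its depth and software version.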

How the data were processed

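Per the labels' protocols, dissociated glands were depleted of EpCAM and Ter119 cells and of dead cells and captured with 10x Genomics droplets. The deposited values are raw UMI counts per gene and barcode, 1 sparse matrix per library. The submitters' processing notes name Cell Ranger 7.0.1 and mm10, while the file headers name 6.0.1 and 7.0.0, and this difference was not resolved. The sources used here do not say whether intronic reads were counted.

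Cells with at least 500 UMIs, 300 genes and at most 15% mitochondrial UMIs were kept. Scrublet (scanpy 1.11.5, Python 3.11.15) removed 759 ligated doublets and 76, 1 and 0 mock ones, so it had not worked in mock 2 and 3. From 2000 variable genes without the members and pathway lists, 30 components and 15 neighbours, the Leiden method (leidenalg 0.10.2, resolution 1.0) gave 37 clusters, named from markers; 9 stayed unnamed. The naming thresholds were set after the clusters were seen, so names are rebuilt ones. Counts were summed per class and library and tested with edgeR 4.0.16 (R 4.3.3; quasi-likelihood test, TMM, filterByExpr, Benjamini-Hochberg at 0.05 over all genes of the class); the 3 mock libraries alone gave the spread (2 residual degrees of freedom), taken to hold for the ligated one too. A class by surgery term, with a term per library, compared responses between classes. An exact permutation of 1 library against 3 cannot go below p = 0.25. The code was tested on simulated data. DESeq2 1.42.0 and other alternatives are given at the end. Intervals are exact 95% ones and cover counting error only.

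Named besides the members were up to 4 genes per list and class with the largest log2 fold change among those outside the mock range, and for each member the 3 most alike genes. The members and lists were chosen with earlier results of these data known. Transcript gates and values within clusters are descriptions.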

Additional observations from a re-analysis of the deposited data

Results flagged for a closer look

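The difference between ligated and mock libraries was compared for 2 pairs of classes, and in each pair 1 of the tested members passed. Tigit did not pass the filter on low counts in the endothelial-like and myeloid pair, so it was not tested there. In that pair the myeloid cells carried less endothelial marker RNA in the ligated library than in any mock library. Its part in the Cd274 difference was not tested. For Cd160 the log2 fold change was -0.11 in T-like cells and -0.84 in NK/ILC1-like cells, and the T-like value minus the NK/ILC1-like value was 0.72 ± 0.13 (adjusted p = 3.83e-05, edgeR; 4.66% of 12863 genes passed). For Cd274 it was -1.29 in endothelial-like and -3.02 in myeloid cells, and the endothelial-like value minus the myeloid value, fitted jointly, was 1.70 ± 0.47 (adjusted p = 0.0128, edgeR, and 0.115 without mock 2; 7.07% of 14462 genes passed).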

How the results depend on the processing

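No paired analysis was possible because no label pairs the ligated library with a mock library. The counts of genes called depended strongly on the setting; the cause was not tested. DESeq2 called 139 genes in T-like, 50 in NK/ILC1-like, 94 in lymphocyte, 248 in myeloid, 782 in stromal, 236 in endothelial-like and 251 in fibroblast-like cells. With a term for the software version the counts were 710, 1697, 2049, 561, 7163, 5233 and 3235 in the same order. With no filter on low counts they were 158 in T-like, 1 in NK/ILC1-like and 519 in myeloid cells, and with the highest doublet scores removed 0 in lymphocyte and 1 in myeloid cells. Leaving out each mock library in turn gave 2 to 4408 genes in T-like, 0 to 7147 in NK/ILC1-like, 0 to 7941 in lymphocyte, 4 to 2234 in myeloid, 0 to 10957 in stromal, 0 to 8933 in endothelial-like and 0 to 7054 in fibroblast-like cells, with the highest count always without mock 1. Genes with a different response numbered 340 to 870 between T-like and NK/ILC1-like cells and 657 to 1519 between endothelial-like and myeloid cells.

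Of 379 alternative values for 39 member fold changes, 319 kept direction and side of the threshold, 48 passed it newly and 12 reversed. With the version term the log2 fold change reversed for Ctla4 in T-like (0.60), lymphocyte (0.70), stromal (5.58) and endothelial-like cells (5.74), for Pdcd1lg2 in T-like (0.63), NK/ILC1-like (0.14) and lymphocyte cells (0.26), and for Lag3 in myeloid cells (-0.52). Leaving out each mock library in turn gave -0.41 to 0.18 for Ctla4 in T-like and -0.43 to 0.25 in lymphocyte cells (highest without mock 3), and -0.22 to 0.021 for Cd160 in T-like cells (highest without mock 1) and -0.13 to 0.97 in fibroblast-like cells (lowest without mock 1). The version term and the ratio to mock 1 rest on the same pair of libraries. Few UMIs per cell limit Havcr2, Tigit and Ctla4 in T-like and NK/ILC1-like cells.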

Other observations

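Regulatory T cells were too few to describe: a UMI of Foxp3 was found in 10 ligated T-like cells, against 0, 2 and 0 in mock 1, 2 and 3. Ctla4 was found in 5 of the 10 ligated cells. Havcr2 was also found in erythroid-like cells, in 16.3% of ligated cells, against 7.32, 32.1 and 21.7% in mock 1, 2 and 3; that class includes cluster 24, led by MHC class II genes beside haemoglobin genes. Among T-like cells with a UMI of Mki67 or Top2a, Lag3 was found in 21.1% of 228 ligated cells, against 7.69% of 13, 9.68% of 31 and 6.90% of 29 mock cells.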
